A study of Xenopus laevis with 3 samples.

Results

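KATP channels are potassium channels that close when ATP is plentiful, and so tie the membrane potential (Vmem) to the energy state of the cell. Each is built from pore-forming Kir6 subunits and regulatory sulfonylurea receptor subunits. A dominant-negative subunit joins the endogenous ones and blocks the pore, which removes a hyperpolarizing potassium current and depolarizes the cell. In the frog embryo, Vmem differences between groups of cells are known to take part in the patterning of the eye, the brain and the face.

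The embryos compared here were *Xenopus laevis* at stage 11, in gastrulation. One pool had received mRNA of the dominant-negative KATP construct (DN-KATP, labelled 666 chimera), and the control pool had been injected with water. A pool of embryos that expressed the glycine-gated chloride channel and were kept in its opener ivermectin (GlyR+IVM) served as a further depolarized condition. Each pool held 50 embryos and was measured on 1 Affymetrix *X. laevis* Genome 2.0 array, so no spread between embryos, no standard deviation and no test across replicates can be had. Injection was at the 1-cell stage by the paper and usually at the 4-cell stage by the series description, and the number of cells that carried the construct is not given in the sources used here. The control received no mRNA of any kind, so the depolarizing channel and the presence of injected mRNA cannot be told apart.

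Of 32475 probe sets on the array, its controls left out, 22332 (68.8%) had a MAS 5.0 signal of at least 40 in the control or the DN-KATP array and were compared. A single gene symbol was given for 11791 of them, for 7416 genes. A probe set was called higher when DN-KATP reached 40 and exceeded the control by a factor of 2 or more, and lower when the reverse held. By this rule 1264 probe sets (5.66% of those compared) were higher and 594 (2.66%) were lower. Among those with a single gene symbol 477 (4.05%) were higher and 287 (2.43%) lower. The signal of GlyR+IVM was within 1.5-fold of the control at 410 of the higher (1.84% of those compared) and 295 of the lower ones (1.32%). That window is part of the rule by which these probe sets were chosen, and both depolarized arrays are set against the same control array. It is therefore a description, and no difference between DN-KATP and GlyR+IVM embryos was tested.

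The arrays were alike in level, with median signals of 93.3 (control), 97.3 (GlyR+IVM) and 101.8 (DN-KATP). Of the gastrula markers on the array, 10 of 10 reached a signal of 40 in both the control and the DN-KATP array and 7 reached 1000 in both, tbxt, sox3 and vegt among them. Of 11 markers of later tissues, 1 reached 40 in the control and 3 in DN-KATP. The globin gene hba-l5.L, outside that set, was bright and was called both ways. At 1 probe set it had 6373 (control), 7827 (GlyR+IVM) and 1527 (DN-KATP), and at the other measured one 34.8, 84.4 and 211. No probe set with a single symbol was named for kcnj8, kcnj11, abcc8 or abcc9, the subunits of the targeted channel, so its transcripts and those of the construct were not checked. Which way the changes leaned depended on the scaling: 68.0% of the called probe sets were higher with the deposited signals, 51.7% after quantile normalization, 52.3% with a common median, 31.6% with the arrays scaled to polyA spike-ins and 14.8% with hybridization spike-ins. For those with GlyR+IVM near the control these shares were 58.2%, 42.2%, 39.5%, 37.3% and 17.1%. The median log2 ratio of all compared probe sets was 0.05 as deposited, -0.07 with a common median, -0.22 on the polyA scale and -0.40 on the hybridization scale, so results for groups of genes are given relative to all genes.

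Large ratios were most frequent among dim probe sets. Where the higher of both signals lay between 40 and 100, 12.52% of probe sets were higher and 4.54% lower in DN-KATP, with a standard deviation of the log2 ratio of 0.87 over probe sets. At signals of at least 1600 these values were 1.23%, 0.943% and 0.49. The lower of both signals was under 40 at 57.0% of the higher and 49.5% of the lower probe sets, against 10.9% of all those compared. The median change was 2.53-fold among the higher and 2.60-fold among the lower ones. At the threshold, sbk1l.L was just inside with 121 in the control and 242 in DN-KATP, and susd6.S just outside with 435 and 866. On the lower side timm10.L, with 810 and 404, was just inside, and ahsa1.L, with 406 and 203, just outside.

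**Figure D1:**
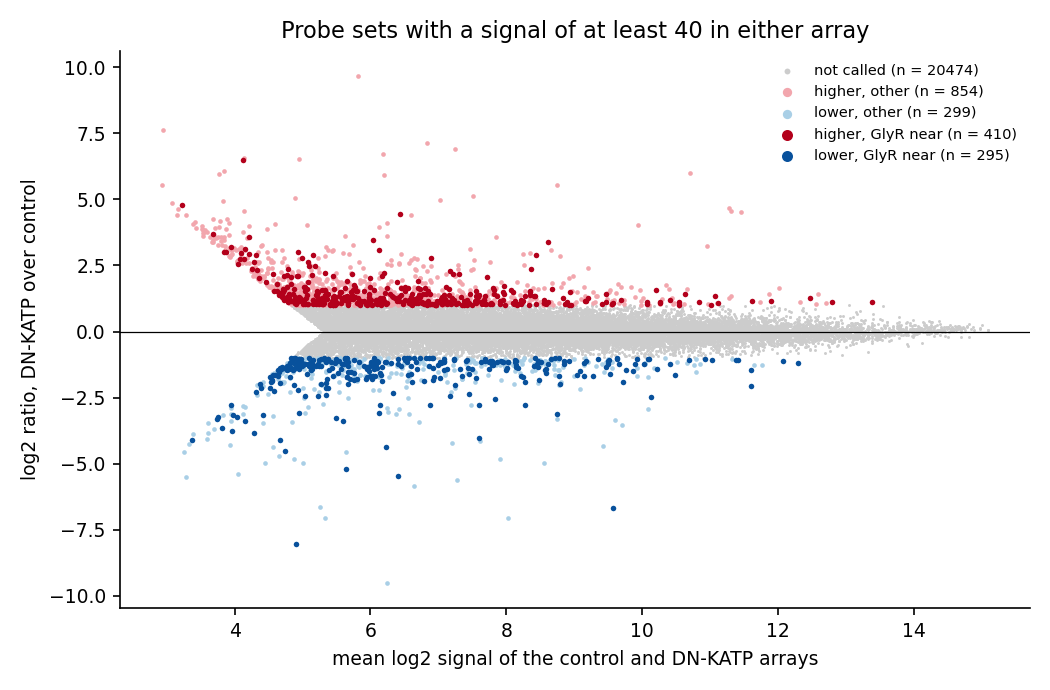
Each point is 1 of the 22332 compared probe sets; the horizontal axis gives the mean log2 signal of the control and DN-KATP arrays and the vertical axis the log2 ratio of DN-KATP over control. Dark points are the 410 higher and 295 lower probe sets whose GlyR+IVM signal was within 1.5-fold of the control, light points the other called ones, and the cloud is widest at low signals.

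Genes of the eye field, the part of the anterior neural plate that gives rise to both eyes, were among the higher ones. Of 11 measured genes on a list of eye field and anterior neural genes, 4 were higher at a probe set (rax, pax6, lhx2 and mab21l2) and 1 was lower (emx1), while over all named genes 5.69% were higher and 3.67% lower at a probe set. The list covers 21 genes on the array, and the others, six6 and vax1 among them, stayed under a signal of 40 in both arrays. The genes lhx2 and mab21l2 count as measured only because DN-KATP reached 40. Of all probe sets with a higher signal between 40 and 100, 12.52% were higher in DN-KATP. A gene counts once any of its probe sets is called, and rax had 5 measured ones.

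The gene rax encodes the retinal homeobox factor without which no eye forms. At 1 probe set of rax.L the signal was 49.0 (control), 67.1 (GlyR+IVM) and 155 (DN-KATP). At another it was 27.2, 6.73 and 97.2. The homeolog rax.S gave 61.8, 44.1 and 152 at 1 probe set. Thus DN-KATP was the highest of the 3 arrays at each of these, and the control and GlyR+IVM signals stayed low. A further probe set of rax.S was also called, with 2.102, 3.79 and 44.7, of which only the last reached 40. The last measured one was not, with 65.3, 31.3 and 54.5. Over all 5 probe sets the mean log2 ratio of rax was 1.79 in DN-KATP and -0.45 in GlyR+IVM.

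The paired-box gene pax6, which directs eye development across animals, was brighter. Its signal at pax6.L was 664 (control), 1324 (GlyR+IVM) and 1619 (DN-KATP) at 1 probe set, and 101, 179 and 238 at the other measured one. Here GlyR+IVM lay between the other arrays, and DN-KATP was 2.44-fold and 2.35-fold above the control. The LIM homeobox gene lhx2.L, which acts early in the optic vesicle, had 34.5, 62.5 and 89.8, and mab21l2.L, needed for growth of the optic cup in mice, 17.9, 28.6 and 58.6. Both rest on control signals under 40. The forebrain gene emx1.S had 41.4 (control), 17.7 (GlyR+IVM) and 19.7 (DN-KATP).

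Other anterior genes did not pass 2-fold. The T-box gene tbx3, a member of the eye field network, had 106, 156 and 211 for tbx3.L and 276, 311 and 464 for tbx3.S. The eye and forebrain gene six3.L had 218, 160 and 282. Of the forebrain and midbrain genes otx1, otx2 and hesx1, the 5 measured probe sets had log2 ratios from -0.47 to 0.21 in DN-KATP and from -1.14 to -0.31 in GlyR+IVM. The whole list stood 0.38 above the median of all genes in DN-KATP and at -0.43 against it in GlyR+IVM on the log2 scale, and the DN-KATP value was 0.30 with 32 added to every signal, 0.70 with a signal floor of 20 and between 0.37 and 0.40 under the other scalings. In both arrays the list median is the value of 1 gene, six3. The GlyR+IVM value does not hold for all members. The mean log2 ratio in GlyR+IVM was 0.91 for pax6, 0.86 for lhx2, 0.67 for mab21l2 and 0.36 for tbx3. It was below 0 for rax, six3, emx1, otx1, otx2, hesx1 and fezf2. These are embryos pooled whole, in which more cells of a type and more RNA per cell cannot be told apart.

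Genes of the surface ectoderm were higher too, some at bright and some at dim probe sets. Of 21 measured genes of epidermis and ciliated cells 5 were higher (foxi1, gata3, dlx3, krt19 and mcidas) and 0 lower, against 5.69% and 3.67% of all named genes. A gene counts once any of its probe sets is called, and krt19 had 7 measured ones and dlx3 had 4. The median log2 ratio of the list, relative to all genes, was 0.41 in DN-KATP and 0.08 in GlyR+IVM, and 18 of 21 genes had a ratio above 0 in DN-KATP. That median lay between 0.37 and 0.47 under the alternative scalings.

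The forkhead gene foxi1.L, which specifies the ionocytes of the tadpole skin, had a signal of 581 (control), 334 (GlyR+IVM) and 1739 (DN-KATP). It was therefore 2.99-fold above the control in one depolarized array and below it in the other. A related forkhead gene of the animal ectoderm, foxi4.2.S, had 481, 536 and 1048, and 827, 908 and 1807 at a probe set that can cross-hybridize. Both were near the control in GlyR+IVM. Another 2 probe sets of foxi4.2.S were not called, at 778, 879 and 780, and at 1352, 1685 and 2079. The gene mcidas.S, which switches on the multiciliated cell program, had 49.3, 46.5 and 109.

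Downstream members of that program did not reach 2-fold. The cyclin gene ccno.L, needed to multiply centrioles, had 1063 (control), 553 (GlyR+IVM) and 1758 (DN-KATP), and ccno.S 341, 165 and 488. The motile cilia regulator foxj1.S had 921, 535 and 1355. Over mcidas, ccno, foxj1 and rfx2, which were grouped after their values were seen, 5 of 6 probe sets were above the control in DN-KATP and 0 in GlyR+IVM. With the arrays scaled to hybridization or polyA spike-ins the former count was 4 of 6.

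The zinc finger gene gata3.S, a factor of non-neural ectoderm, had 245 (control), 161 (GlyR+IVM) and 530 (DN-KATP) at the called probe set. Its other probe set had 453, 395 and 782, short of 2-fold. The homeobox gene dlx3.L, which sets the border between epidermis and neural plate, had 144, 152 and 297, and 47.9, 70.3 and 101 at a further probe set. A further one had 1742, 1306 and 2382 and dlx3.S had 3301, 2739 and 3527, neither called.

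A keratin gene, krt19.S, was called higher at all 5 of its probe sets. The brightest had 904 (control), 1011 (GlyR+IVM) and 2043 (DN-KATP), and the next 155, 330 and 461. DN-KATP was 2.26-fold to 3.83-fold above the control over the 5, which carry related sequences and are not independent. The homeolog krt19.L was not called, with 735, 1595 and 780 at 1 probe set and 1844, 2987 and 3315 at the other. The abundant larval keratins krt12.4, krt12.5 and krt70 changed little, with log2 ratios of 0.16 to 0.40, of which 5 were below 0 on the hybridization scale and 3 on the polyA scale, both of which lower every ratio alike.

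The genes agr2, lsr and tbx2 were each called higher at 2 probe sets and were highest in DN-KATP at those probe sets. They were picked, with values known, from the 42 genes with at least 2 such probe sets. Others of the 42 were highest in GlyR+IVM, such as eps8l3.S with 928 (control), 2991 (GlyR+IVM) and 2828 (DN-KATP). The gene agr2, a disulfide isomerase of the mucus-secreting cement gland, had 970 (control), 870 (GlyR+IVM) and 2589 (DN-KATP) for agr2.L, and 523, 465 and 1109 for agr2.S. Both homeologs were thus above 2-fold with GlyR+IVM slightly below the control. The tricellular junction receptor lsr.S had 2571, 2581 and 5689 and was called at 2 of its probe sets, with another at 1.91-fold and the last at 3789, 3164 and 2837. The T-box gene tbx2 was higher as tbx2.L, with 204, 300 and 525, and as tbx2.S, with 266, 444 and 566.

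Immediate-early genes, which cells switch on within minutes of a stimulus and which neurons use to read out depolarization, were higher in part. Of 19 measured genes 6 were higher and 0 lower at a probe set, against 5.69% and 3.67% of all named genes. The called probe sets of jun.L, junb.S, nr4a1.L and ier2.S rest on control signals under 40. The list's median relative to all genes was 0.36 in DN-KATP and 0.43 in GlyR+IVM. Among the called genes were subunits of the transcription factor AP-1 and an orphan nuclear receptor.

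The AP-1 gene fos.S had a signal of 65.2 (control), 120 (GlyR+IVM) and 377 (DN-KATP), which is 5.78-fold. Its partner junb.L had 66.9, 170 and 792, or 11.8-fold, and jun.L had 32.8, 68.1 and 152. In each of these DN-KATP was highest and GlyR+IVM intermediate. At junb.S the probe sets gave 20.9, 108 and 78.5, and 4.34, 19.2 and 47.6, so GlyR+IVM was highest at the former. The nuclear receptor gene nr4a1 had 36.3, 45.2 and 88.4 as nr4a1.L and 42.8, 62.0 and 133 as nr4a1.S, with GlyR+IVM near the control in both.

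Over the list 16 of 19 genes had a log2 ratio above 0 in DN-KATP, most of them short of 2-fold. The stress gene gadd45a.S was called at 1 probe set, with 190, 237 and 395, and at the other 3 was 1.26-fold to 1.49-fold above the control. The gene ier2.S was called at a probe set with 9.34, 57.1 and 47.3, while its bright one had 839, 904 and 744 and ier2.L had 726, 733 and 960. Of the genes not called, jund.S had 63.0, 133 and 93.2, and btg2.S, which restrains proliferation, had 2090, 3441 and 2667. For atf3, dusp1, dusp5, dusp6, klf2, klf6, btg1 and ier5, grouped after their values were seen, 13 of 19 probe sets were above 0, with log2 ratios between -0.52 and 0.49, and 2 of 19 on the hybridization scale, which lowers every ratio alike.

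Feedback inhibitors of cytokine signaling were higher at both homeologs. The gene socs3, whose product shuts off JAK-STAT receptors, had 14.99 (control), 37.3 (GlyR+IVM) and 128 (DN-KATP) as socs3.L, and 44.1, 44.1 and 160 as socs3.S. Its relative socs1.S had 22.5, 35.0 and 59.9 at the called probe set. Of 22 measured innate immune genes 6 were higher and 3 lower, against 5.69% and 3.67% of all named genes, and the list's median relative to all genes was 0.35 in DN-KATP and 0.25 in GlyR+IVM. Under the alternatives that of DN-KATP lay between 0.13, with a floor of 100, and 0.36. Of the higher genes, c8a, c9 and tifa rest on control signals under 40 at every called probe set. Lower were traf2.S, an adaptor of tumor necrosis factor receptors, with 197, 139 and 82.9, the immunoproteasome subunit psmb8.L, with 277, 33.0 and 32.2, and the Toll-like receptor adaptor tirap.L, with 190, 46.2 and 44.9. The last 2 were as low in GlyR+IVM as in DN-KATP.

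**Figure D2:**
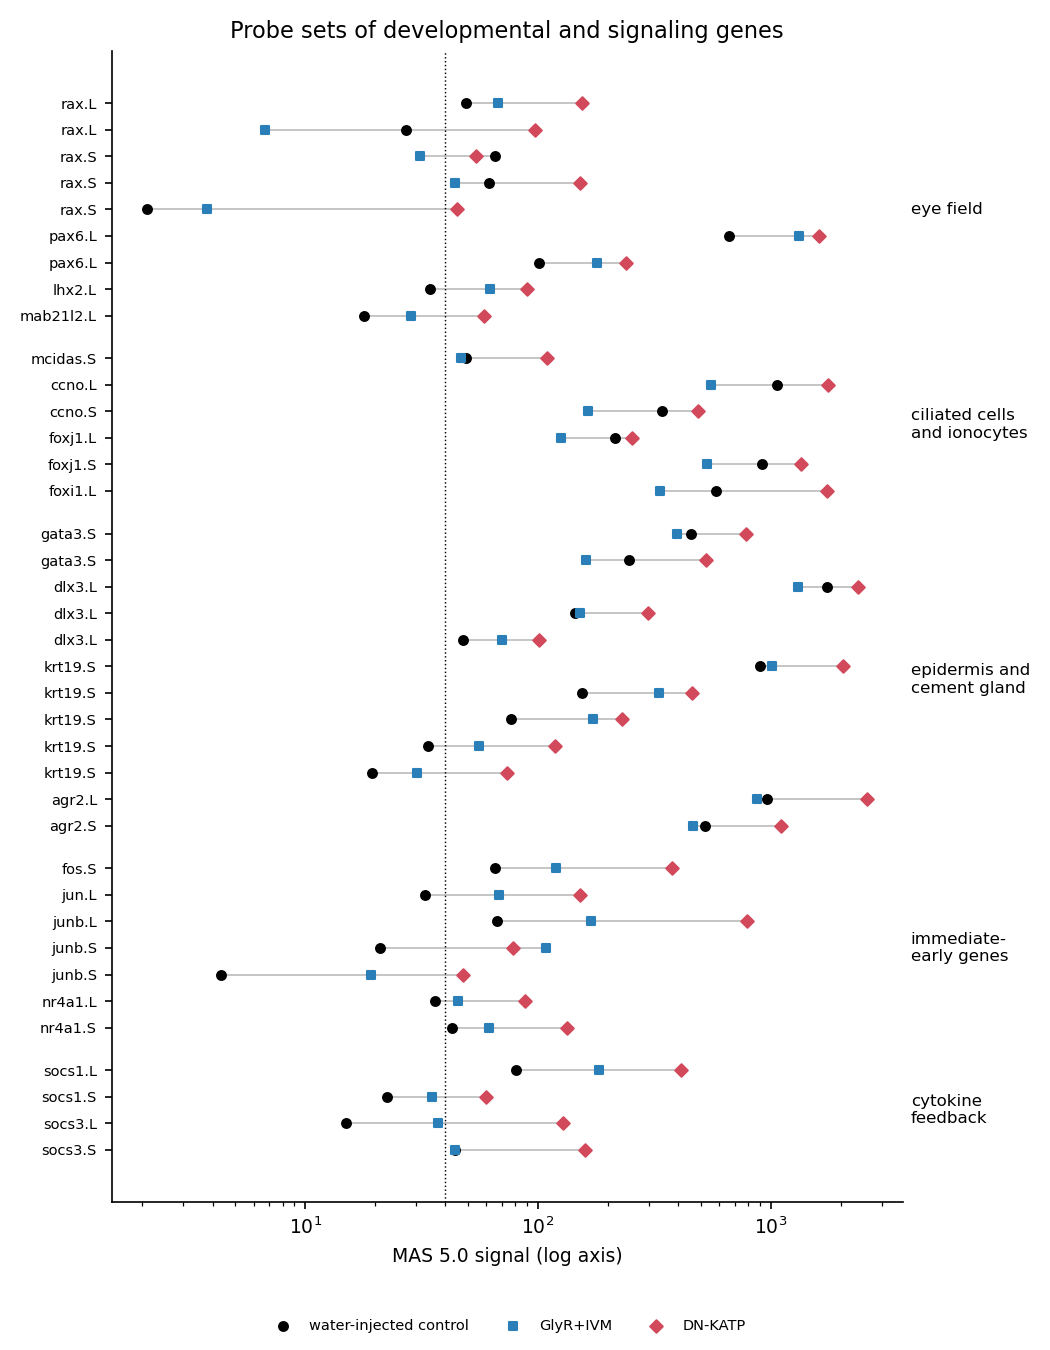
The horizontal axis gives the MAS 5.0 signal on a log scale and each row is 1 probe set of the named gene, with the water-injected control (circle), GlyR+IVM (square) and DN-KATP (diamond); the dotted line marks a signal of 40. DN-KATP is the highest array in all rows but 1 of rax.S and 1 of junb.S, and GlyR+IVM lies below the control in every row of mcidas, ccno, foxj1, foxi1, gata3 and agr2.

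Of the 8 largest increases whatever the GlyR+IVM signal, all but that of wdr24.L were in probe sets whose GlyR+IVM signal was also above the control. The ribonucleotide reductase gene rrm2.1.L had 211, 5853 and 13298, in the order control, GlyR+IVM and DN-KATP, and the cell cycle phosphatase cdc25a.S had 21.7, 131 and 263, while cdc25a.L had 2154, 1847 and 2291. A gene related to aconitate decarboxylase, the enzyme that makes itaconate, acod1lb.L, had 496 (control), 1776 (GlyR+IVM) and 12548 (DN-KATP), and 62.8, 211 and 2921 at a further probe set. A further one had 481, 528 and 274. The bright probe sets phyhdlb.L, with 642, 1756 and 6088, and satpb.L, with 241, 800 and 3970, had the same order of arrays.

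The largest increases with GlyR+IVM near the control were in genes with varied roles. Named genes with at least 10 in the lower array and 100 in the higher were ranked. Of these, rax, socs3, nr4a1, bet1l, cnpy1, vepp1 and znrd2 were called higher at 2 or more probe sets. The amino acid sensing gene wdr24.L had 18.7 (control), 12.8 (GlyR+IVM) and 403 (DN-KATP), yet another of its probe sets was lower, from 43.5 to 13.8, and the last had 132 and 190. The peptidase gene thop1.L had 128, 183 and 946. The phosphatase gene ppp1cb.L had 64.7, 67.9 and 320, whereas its bright probe set had 2836, 2464 and 2647. Such disagreement within a gene was seen in part of this group, and a called probe set does not speak for the whole gene.

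Among the others, the lowest DN-KATP log2 ratio over measured probe sets was 2.05 for vepp1, 1.86 for socs3 and 1.28 for nr4a1. It was 0.96 for bet1l, 0.75 for gemin2, 0.42 for cnpy1, 0.34 for zw10, 0.14 for wipi1 and 0.02 for eif4a3.1. For rax, sds and znrd2 it was below 0. The gene gemin2.S, for a protein that assembles splicing particles, had 137, 160 and 454, and 615, 559 and 1031 at a further probe set. The zinc ribbon gene znrd2 had 214, 215 and 550 as znrd2.L and 53.6, 54.4 and 203 as znrd2.S, though another znrd2.S probe set had 1268, 1249 and 921. The autophagy gene wipi1.L had 233, 201 and 717, while its homeolog wipi1.S had 382, 376 and 423, and the serine dehydratase gene sds.L had 127, 124 and 396, while sds.S had 44.4, 46.6 and 32.6. The oocyte linker histone gene h1-8.S, a maternal transcript, had 4806, 3682 and 10369.

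Among the lower genes were some enzymes of central metabolism. Of 38 measured genes of glycolysis and the citric acid cycle 4 were lower (tpi1, sucla2, pdha1 and idh3a) and 2 higher (hk1 and pkm), against 3.67% and 5.69% of all named genes. The list's median relative to all genes was -0.05 in DN-KATP and -0.00 in GlyR+IVM. That of DN-KATP was 0.00 after quantile normalization. The called lower probe sets numbered 5, and GlyR+IVM was within 1.5-fold of the control at all 5. It was so at 49.7% of all lower probe sets and at 79.4% of all compared ones.

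Triosephosphate isomerase, tpi1.S, had 2089 (control), 2191 (GlyR+IVM) and 890 (DN-KATP), and 2411, 1940 and 1136 at a further probe set. The other had 648, 1342 and 400, which is 1.62-fold lower. The succinyl-CoA synthetase subunit sucla2.S had 599, 561 and 159 where it was called and 399, 415 and 321 at the other measured probe set. The pyruvate dehydrogenase subunit pdha1.S had 1392, 1293 and 684, while pdha1.L had 2870, 2950 and 2578. The isocitrate dehydrogenase subunit idh3a.S was called at 53.5, 45.0 and 23.4, and its brighter probe set had 399.7, 397 and 369. Of the related genes gapdh, eno1, ldhb, mdh1, mdh2 and suclg1, picked after their values were seen, 12 of 12 probe sets were below the control in DN-KATP, with log2 ratios from -0.85 to -0.33, and 9 of 12 were below it in GlyR+IVM. The 12 of 12 was shaped by that choice. Over the list of 38 genes, 22 had a log2 ratio below 0 in DN-KATP. Another 16 were above 0, pklr (0.58) and pgam1 (0.48) among them. The higher gene pkm.L, for pyruvate kinase, had 820, 2492 and 1945.

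Enzymes of glutathione and thioredoxin metabolism moved both ways. Of 30 measured genes of oxidative stress and metals 2 were lower (gclc and txnrd1) and 4 higher (gpx3, gsr, gsta1 and prdx1), against 3.67% and 5.69% of all named genes. Of the 30 genes 19 had a log2 ratio below 0. The rate-limiting enzyme of glutathione synthesis, gclc.L, had 599 (control), 481 (GlyR+IVM) and 297 (DN-KATP), and 189, 177 and 50.8 at another probe set. The other 2 measured ones were 1.59-fold and 1.22-fold lower. The lower member txnrd1.L had 98.5, 86.6 and 39.1. Of the higher members, gsta1.L was dim, with 4.64, 11.8 and 73.3 (gsta1.S had 377, 395 and 464). The gene gpx3.S was also higher in GlyR+IVM, with 183, 606 and 471. For gsr.L and prdx1.L, GlyR+IVM was within 1.5-fold of the control. The control signal of gsr.L was under 40, and prdx1.L had 86.4, 119 and 178. Its homeolog prdx1.S was not called, with 3068, 3440 and 3038. The list's median relative to all genes was -0.18 in DN-KATP and 0.03 in GlyR+IVM, and under the alternatives that of DN-KATP lay between -0.19 and -0.13.

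Ion transport genes other than the targeted channel were mostly little changed, with a few exceptions. The intracellular chloride channel protein clic4.S had 415 (control), 335 (GlyR+IVM) and 160 (DN-KATP) at 1 probe set, and 521, 312 and 224 at the other. The homeolog clic4.L had 120, 119 and 73.2. All 6 measured probe sets of clic1, clic3 and clic4, a family singled out after its values were seen, were below the control in DN-KATP, with log2 ratios between -1.38 and -0.48, and 4 of 6 were below it in GlyR+IVM. Other chloride channel genes did not share this. Of 10 measured genes on that list 0 were higher and 1, clic4, was lower, against 5.69% and 3.67% of all named genes. In DN-KATP 6 of the 10 had a log2 ratio above 0, and the list's median relative to all genes was 0.13.

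The beta subunit gene atp1b2.L of the sodium pump, which maintains Vmem, had 1454, 1061 and 628, and 145, 127 and 79.5 at a probe set that can cross-hybridize. Its homeolog atp1b2.S was higher, from a dim 20.5 in the control to 42.7. The proton pump subunit atp6v0e1.S had 1125, 685 and 509, while atp6v0e1.L had 2275, 2883 and 2447. Over all named genes 5.69% were higher and 3.67% lower at a probe set. Of 25 measured pump genes 3 were higher and 2 lower at a probe set, and the median relative to all genes was -0.02. The higher calls, atp1b2.S, atp1b3.S (19.3, 49.4 and 49.0) and atp6v1g3.L (22.5, 41.7 and 70.4), all rest on control signals under 40. Of 10 other potassium channel genes 1 was called, kcnmb3.S, a regulatory subunit of calcium-activated channels, with 16.5, 39.1 and 48.8. Of 8 sodium and calcium channel genes 1 was called, cacna1s.S, with 6.52, 9.63 and 43.8.

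Among named probe sets with GlyR+IVM near the control and at least 10 in the lower array, the largest decrease was that of the apoptosis inhibitor api5.L, with 7673 (control), 10177 (GlyR+IVM) and 75.4 (DN-KATP). It can cross-hybridize, and the other probe set of api5.L had 3266, 3232 and 2596 and api5.S 6739, 5575 and 5592. The RNA-binding gene chtop.S was alike in this, with 2629, 3150 and 475 at 1 probe set and under 1.5-fold change at the other 4. The proteasome-bound deubiquitinase uchl5.L had 1277, 1327 and 146, and the homeobox gene hmbox1.L had 202, 205 and 24.0, each at its only measured probe set. Of the 8 largest decreases whatever the GlyR+IVM signal, man1c1.S, a mannosidase of the secretory pathway, had 241, 155 and 10.3, the flavin monooxygenase fmo5.1.L 2995, 954 and 392, and the nucleotidase bpnt1.L 244, 29.4 and 28.3.

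A smaller number of genes was lower at several probe sets. By the rule of at least 2 probe sets called the same way there were 11 such genes, against 42 higher ones, of 2835 genes with several measured probe sets. More probe sets were called higher than lower to begin with (1264 against 594), and that lean depended on the scaling. The gene atf4-iii, named after a transcription factor of the amino acid stress response, had 741, 417 and 240 at its brightest, and 228, 188 and 64.8 and 222, 158 and 67.8 at the others, so DN-KATP was lowest in all 3. Argininosuccinate lyase, asl.L, an enzyme of arginine synthesis, had 1227, 593 and 466, and 1853, 1032 and 713. Both homeologs of gstk1, a mitochondrial glutathione transferase, were lower, gstk1.L with 296, 166 and 100.02 and gstk1.S with 132, 20.5 and 53.6. Both of tprkb, a subunit of a transfer RNA modifying complex, were lower as well, tprkb.L with 79.9, 71.6 and 32.5 and tprkb.S with 281, 151 and 123.

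**Figure D3:**
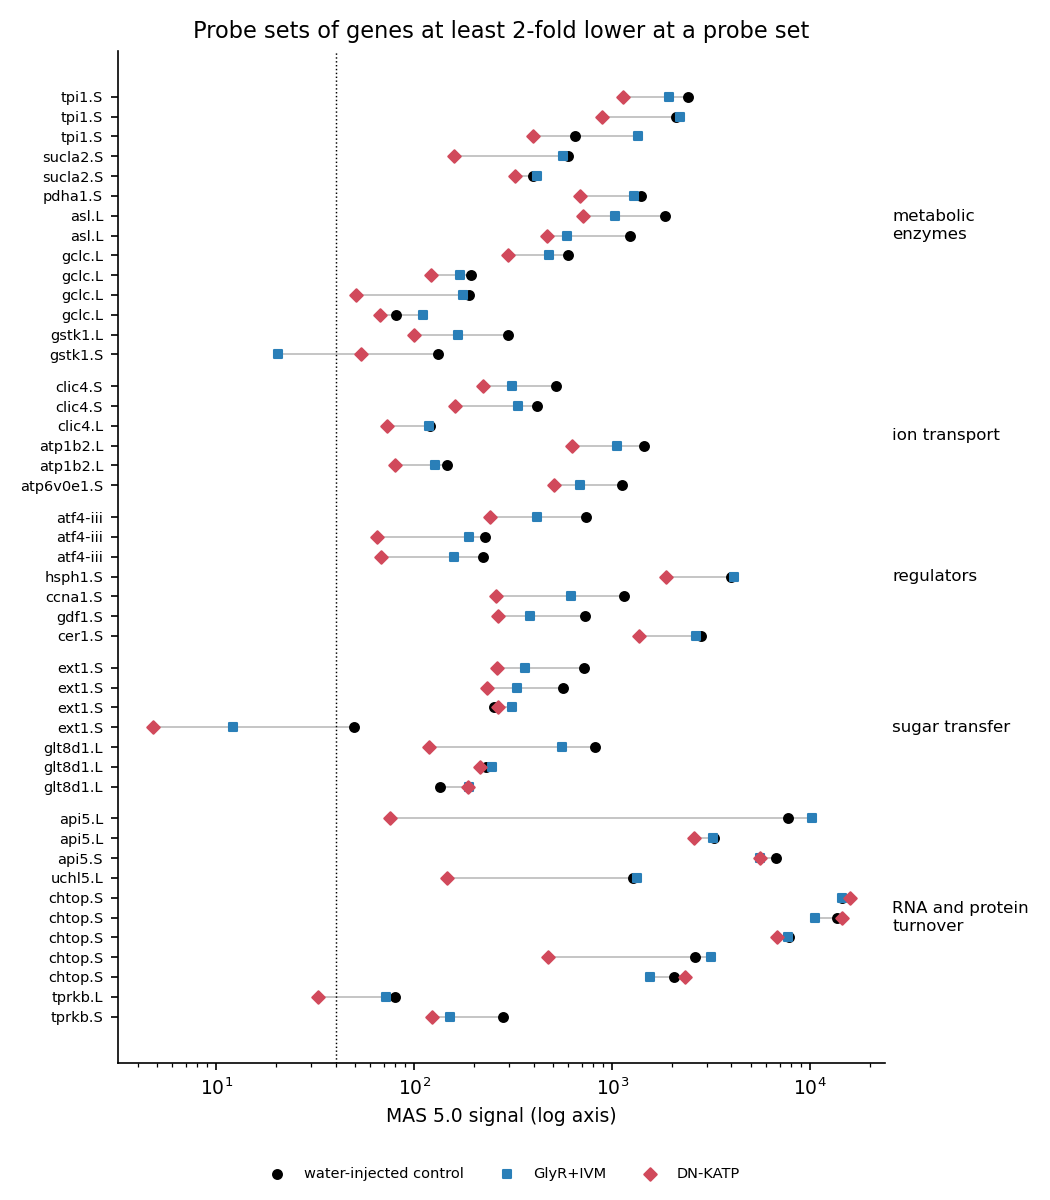
Signals on a log axis as in the plot of developmental and signaling genes, 1 row per probe set, for genes called lower at a probe set. All measured probe sets of the homeologs shown are drawn. Some homeologs are left out, among them pdha1.L and atp6v0e1.L, which were not called, and atp1b2.S, which was called higher. For api5, chtop, glt8d1 and sucla2 a single probe set was far below the control and the others were close to it, while the 3 rows of atf4-iii lie apart together.

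Patterning genes with a lower signal were few. The secreted head inducer cer1.S had 2796 (control), 2653 (GlyR+IVM) and 1367 (DN-KATP). The maternal growth factor gdf1.S had 730, 382 and 263. Of 25 neural plate, 27 mesoderm, 43 Wnt and 18 Notch genes none was called in either direction, while over all named genes 5.69% were higher and 3.67% lower. Of 31 measured BMP pathway genes 4 were higher (bmp2, bmper, bmpr2 and ventx1.1) and 0 lower. Their median relative to all genes was 0.40 in DN-KATP and 0.30 in GlyR+IVM, with 27 of 31 ratios above 0 in DN-KATP. Under the alternatives that of DN-KATP lay between 0.33 and 0.46. Control signals of bmper and bmpr2 were under 40, and bmp2 was higher in GlyR+IVM than in DN-KATP. Of 18 measured endoderm genes 0 were higher and 1, cer1, was lower, yet their median relative to all genes was 0.44 in DN-KATP and 0.25 in GlyR+IVM, with 13 of 18 ratios above 0; under the alternatives that of DN-KATP lay between 0.28 and 0.55. For 17 of the first genes to be transcribed in the embryo it was 0.42 and 0.18, also with none called, and the DN-KATP value lay between 0.30 and 0.44 under the alternatives.

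**Figure D4:**
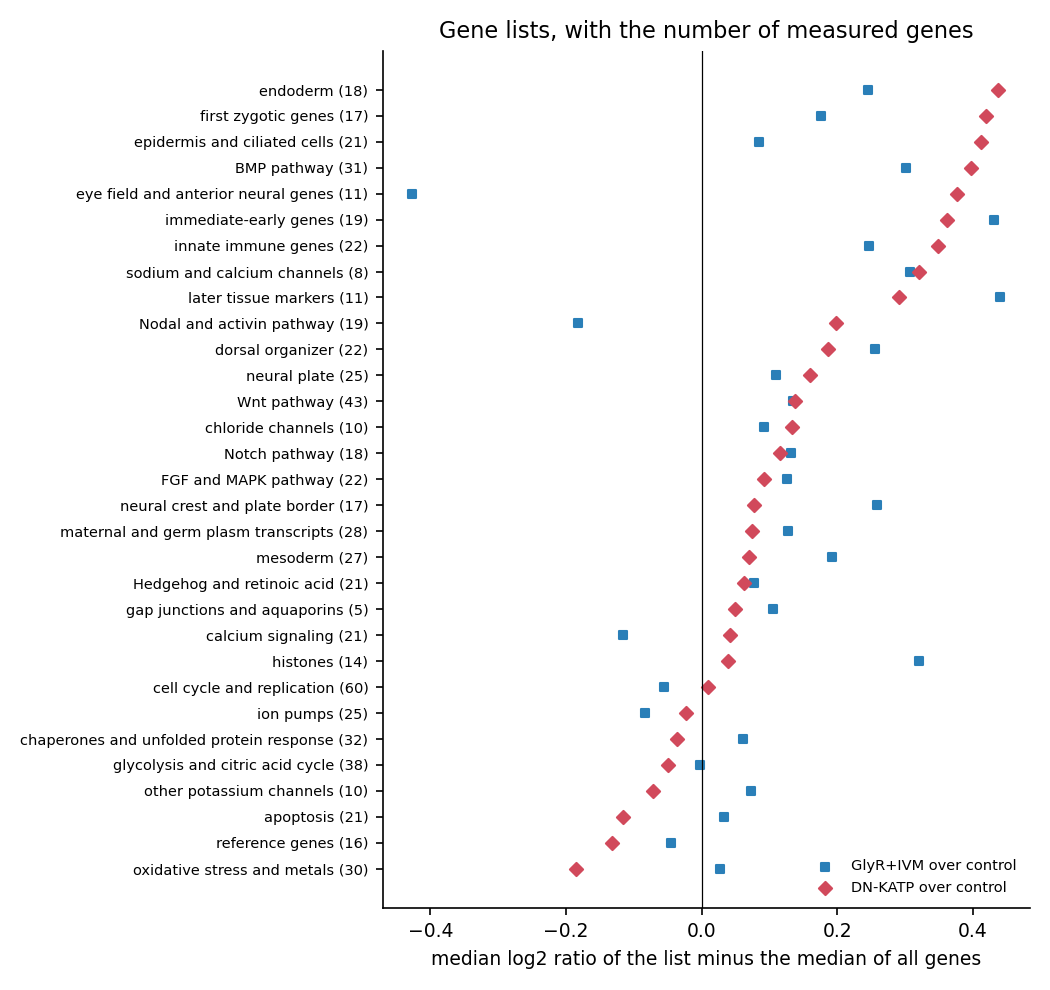
The horizontal axis gives the median log2 ratio of each list minus that of all genes, for DN-KATP (diamond) and GlyR+IVM (square) over the same control array; the number of measured genes is in brackets. In DN-KATP the lists lie between -0.18 (oxidative stress and metals) and 0.44 (endoderm). The widest gap between the arrays is that of the eye field and anterior neural list, at 0.38 and -0.43. In that list pax6, lhx2, mab21l2 and tbx3 were above the control in GlyR+IVM and the other genes below it.

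Other probe sets of a called gene are the nearest thing to a repeat in these data, although they share the RNA pool and the array. Each called probe set was set against the mean log2 ratio of all other measured probe sets of its gene. Genes with several called probe sets are thus counted more than once. Of 442 higher probe sets with a gene name 258 had another measured probe set of the same gene. The mean of the others was above 0 in 205 (79.5%), with a median of 0.39, and at least 1.5-fold higher in 94 (36.4%). Of single probe sets of genes with several, 49.5% were above 0, 50.5% below and 10.2% at least 1.5-fold higher. A mean and a single probe set are unlike measures. Of 271 lower ones 162 had another. The mean of the others was below 0 in 115 (71.0%), with a median of -0.20. It was at least 1.5-fold lower in 33 (20.4%, against 8.23% of single probe sets). Where GlyR+IVM was near the control, the direction was shared in 73 of 90 higher and 62 of 86 lower ones. Cross-hybridizing and overlapping probe sets of 1 transcript are among these pairs.

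*X. laevis* carries homeologous gene copies on its L and S chromosomes, and their probe sets are more distinct. Of 133 higher probe sets whose other homeolog was measured, 94 shared the direction of its mean log2 ratio. In 39 of them that mean was at least 1.5-fold higher, and in 7 others at least 1.5-fold the other way. Of 84 lower ones 59 shared the direction, 10 by at least 1.5-fold against 9 the other way, and with GlyR+IVM near the control 4 did so each way among 41. The copies were both called higher for 13 genes, rax, junb, nr4a1, socs1, socs3, agr2, tbx2, stx19, cyp1a1, eif4e3, emp3, dag1 and znrd2, and both lower for gstk1 and tprkb. The syntaxin stx19, a vesicle fusion protein, had 258, 677 and 1363 as stx19.L and 30.8, 91.3 and 75.2 at the called probe set of stx19.S, whose bright probe sets did not change by 2-fold, and the detoxifying enzyme cyp1a1 15.4, 12.1 and 42.2 as cyp1a1.S. Over 1545 genes with both copies measured, which share arrays and RNA, Pearson's r between their log2 ratios was 0.21 and Spearman's rho 0.30, across genes that are not independent replicates.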

How the data were processed

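Total RNA of 3 pools of 50 stage 11 embryos was hybridized by the authors to 1 Affymetrix array each. The authors deposited linear intensity, the MAS 5.0 signal, normalized with that algorithm; its version is not given in the sources used here, and the values carry no detection calls. They were used as deposited. The number of arrays limits the precision.

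The 160 control probe sets were left out. A signal floor of 40 stands where the study's methods use a present call, and the fold threshold of 2 is theirs. Ratios were taken without a pseudocount. For a gene, log2 ratios were averaged over those of its probe sets that were compared. Gene names came from the platform annotation for the 15495 probe sets with 1 symbol, of which 15384 were brought up to date by gene ID with the RefSeq gene table of the v10.1 assembly.

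Members and the 32 gene lists were chosen with earlier results of these data known, so lists are described by counts and medians beside all genes, without a test. Genes named are the 15 largest changes each way with GlyR+IVM within 1.5-fold of the control and the 8 largest whatever GlyR+IVM (lower array at least 10, higher at least 100), list members with a called probe set, genes with at least 2 probe sets called the same way, and the 5 largest each way with GlyR+IVM at least 2-fold in the opposite direction. They are summarised where many, and other genes serve as context, picked with their values known. Alternatives were a floor of 20 or 100, a 1.5-fold or 3-fold threshold, quantile normalization, a common median, hybridization or polyA spike-ins, 32 added to every signal, no cross-hybridizing probe sets, and a narrower and a wider (2-fold) GlyR+IVM window. The calling rule was run on simulated data, with less noise than in these arrays and with changes above the threshold, at bright probe sets only. That run does not bear on dim probe sets or on changes near 2-fold. Python 3.11, pandas 2.3.3, numpy 2.4.6 and matplotlib 3.10.9.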

Additional observations from a re-analysis of the deposited data

Results flagged for a closer look

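The probe sets given here were called in DN-KATP and at least 2-fold from the control in the opposite direction in GlyR+IVM. They are the largest such changes of named genes, up to 5 each way, with at least 10 in the lower of the control and DN-KATP arrays and at least 40 in the higher of the control and GlyR+IVM arrays, and dimmer ones such as a probe set of rax.L are left out. Each condition is 1 array against a shared control, and the difference was not tested. The signal of vopp1.S was 110 (control), 45.4 (GlyR+IVM) and 834 (DN-KATP), a log2 ratio of 2.92 in DN-KATP. The adhesion gene flrt1.S had 45.2, 17.5 and 174, a log2 ratio of 1.95. The kinase gene sbk1l.L had 80.8, 29.4 and 306 and, from a further probe set, 58.6, 24.3 and 166, log2 ratios of 1.92 and 1.504, while its other 2 called probe sets were above the control in GlyR+IVM. The kinesin gene kif19.S, which acts in cilia, had 55.1, 11.0 and 110, a log2 ratio of 1.00.

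On the other side, the sulfotransferase gene sult6b1.1.L had 151, 653 and 32.3, a log2 ratio of -2.23. The somatostatin gene sst.1.L had 76.8, 156 and 19.2, a log2 ratio of -2.002. The calcium-binding gene rcn1.L had 87.3, 183 and 32.5, a log2 ratio of -1.43, and asrgl1.L, for an asparaginase, had 588, 1266 and 281, a log2 ratio of -1.06.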

How the results depend on the processing

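Counts moved with the floor, the fold threshold and the scaling, in the order higher, lower, higher with GlyR+IVM near the control and lower with it near. They were 1264, 594, 410 and 295 as reported. With a floor of 20 they were 2391, 1157, 600 and 540, and with a floor of 100 they were 586, 348, 224 and 174. With a threshold of 1.5-fold they were 3353, 1893, 1729 and 1179, and with 3-fold 422, 215, 80 and 98. Adding 32 to every signal gave 480, 305, 207 and 159. The hybridization spike-ins gave 372, 2138, 135 and 655, the polyA spike-ins 573, 1238, 229 and 385, and a common median 892, 812, 270 and 414. With the narrower GlyR+IVM window the near counts were 211 and 171, and with 2-fold 722 and 431. Quantile normalization gave 895, 836, 293 and 401, and leaving out cross-hybridizing probe sets 1127, 514, 364 and 257. Of the 209 named probe sets with a call, between 26 (quantile normalization) and 71 (hybridization spike-ins, or 32 added) fell short of 2-fold under the scalings or with 32 added. With a floor of 100, 61 were not called. No paired analysis was possible because each condition is 1 array, and no replicate could be left out. Background near a signal of 40 limits the dim genes, 1 probe set of rax.S and cacna1s.S among them.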
